A study of Rattus norvegicus with 82 samples.

Results

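The genes described here are 8 regulators of muscle protein breakdown: the muscle ubiquitin ligases Trim63 (MuRF1), Trim54 (MuRF3), Trim55 (MuRF2) and Fbxo32 (atrogin-1), the transcription factors Foxo1 and Foxo3, the secreted growth inhibitor Mstn (myostatin) and the autophagy receptor Sqstm1 (p62). They were chosen by gene symbol, and all 8 were among the 17337 genes of the expression table. RNA of isolated cardiomyocytes from the right ventricle (RV) and left ventricle (LV) of 41 rats was measured by sequencing of 82 ribosomal RNA-depleted libraries. By the labels the rats were the offspring of a Wistar Kyoto by Lewis cross, and the study's methods name Wistar by Lewis hybrids. Pressure load had been set on the RV by banding of the pulmonary artery (PAB) or on the LV by banding of the aorta (AOB), sham-operated animals served as controls, and no group carried a genetic change.

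By the labels, the groups of compensated hypertrophy (H) were 11 weeks old after 7 weeks of treatment, with 7 animals in Sham-H and 6 in each of PAB-H and AOB-H. Of the groups of decompensated failure (F), the 9 Sham-F and 7 AOB-F animals were 31 weeks old after 26 weeks, and the 6 PAB-F animals were 28 weeks old after 22 weeks. By these ages PAB-F was compared with older sham animals. The protocol text of the labels and the study's methods each give other ages, while the times since surgery are the same. Each animal gave 1 RV and 1 LV library, so that each of the 12 groups holds as many libraries as its condition has animals, and 21 animals were male and 20 female.

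Muscle cells remove contractile proteins mainly through the ubiquitin-proteasome system and through autophagy. In the ubiquitin route an E3 ligase such as TRIM63 or FBXO32 marks a protein for the proteasome, and in autophagy a receptor such as p62 carries ubiquitin-tagged cargo into vesicles that fuse with lysosomes. FOXO1 and FOXO3 enter the nucleus when insulin and AKT signaling is low and switch on Trim63, Fbxo32 and several autophagy genes, and the myostatin and activin branch of TGF-beta signaling and glucocorticoids act on the same program. In the heart the MuRF proteins sit at the sarcomere and the microtubules of the cardiomyocyte, and loss of several of them in mice leads to cardiac enlargement.

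The promoter of Trim63 shows how several of these inputs can meet at a single gene, and it is printed for that reason. The sequence runs 5′ to 3′ on the plus strand, chr5:151816986-151817285 of build GRCr8, as RefSeq gives it, from 250 bases before to 50 bases after the annotated start. Capitals mark 2 motifs that lie next to each other, the inverted repeat GAACANNNTGTTC bound by the glucocorticoid receptor and the FOXO core TGTTTAC.
Trim63 promoter: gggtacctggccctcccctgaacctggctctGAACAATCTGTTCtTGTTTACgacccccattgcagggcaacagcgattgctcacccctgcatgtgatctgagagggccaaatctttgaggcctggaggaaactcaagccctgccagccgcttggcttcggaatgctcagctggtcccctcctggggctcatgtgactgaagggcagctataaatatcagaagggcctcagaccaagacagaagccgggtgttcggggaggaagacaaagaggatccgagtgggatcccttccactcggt
The inverted repeat began at position -219 and the FOXO core at position -205, with the annotated start as 0, and the motifs did not overlap. Both strands of 27457 rat promoters of the same length were searched. The inverted repeat was in 14 of them (0.051%), the FOXO core in 1033 (3.76%) and the antioxidant response element core TGACNNNGC in 3342 (12.2%). Promoters were at hand for 4 of the 8 genes, Trim63, Trim54, Foxo1 and Sqstm1. The Foxo1 window held the antioxidant letters at 2 places, and the windows of Trim54 and Sqstm1 held none of the 3 motifs. A match is a stretch of letters and no measurement of binding.

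Per gene length, the ligases and p62 were abundant transcripts of these cells. On the FPKM scale, over all 82 libraries, Sqstm1 averaged 235 ± 61.5 (SD), Fbxo32 235 ± 73.9, Trim54 203 ± 53.7, Trim63 153 ± 42.5 and Trim55 86.4 ± 28.4. The transcription factors were lower, with 39.8 ± 7.91 FPKM for Foxo1 and 28.6 ± 4.88 FPKM for Foxo3. Sqstm1 ranked 289 and Fbxo32 290 among the 17337 genes by mean FPKM, and Foxo3 ranked 2631.

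Mstn stood apart from the other 7 genes. It had 100 reads in all libraries together, was at 0 in 43 of the 82, and reached at most 8 reads in a library, for a mean of 0.0771 FPKM. By group its reads ranged from 3 in the 6 RV AOB-H libraries, 0.0401 CPM (counts set to a common library total; exact Poisson 95% interval 0.00827 to 0.117), to 14 in the 6 RV PAB-F libraries, 0.185 CPM (0.101 to 0.310). It did not pass the filter on low counts and was given no test, so every count of genes called is a count among 7. Such intervals cover counting error only.

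**Figure D1:**
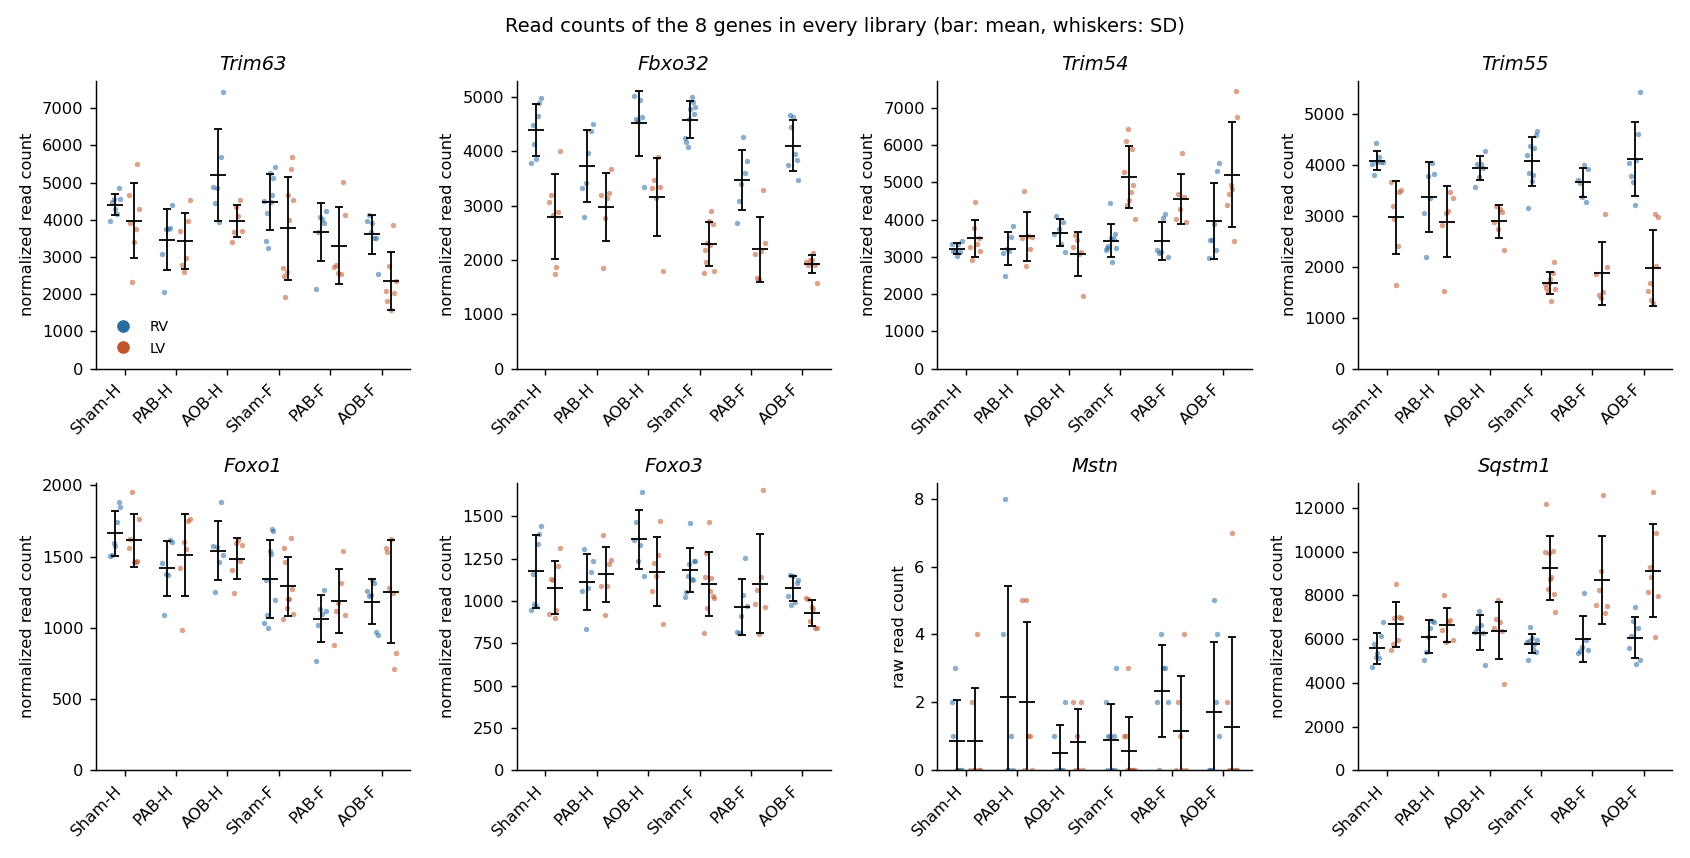
Read counts of the 8 genes in every library, by condition (x axis), with RV in blue and LV in orange; the y axes start at 0 and give normalized read counts, and raw read counts for Mstn, and bars and whiskers give the mean and SD of each group. Fbxo32 and Trim55 are lower, and Trim54 and Sqstm1 higher, in the LV libraries of the 3 F conditions, while Mstn stays at or under 8 reads.

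Libraries held between 6675287 and 19665439 counts on genes. A leading axis of the tested genes, which took 46.96% of the variance of log2 CPM, set the LV libraries of the F conditions apart: their scores ran from 2.75 to 90.2, against -54.2 to 6.91 in all RV libraries. Among the LV libraries of stage H, Sham-H replicates 4 and 5, PAB-H replicate 2 and AOB-H replicate 6 also scored above every RV library. Markers of several other cell types moved with this axis. The summed share of 7 endothelial genes was 0.168 to 0.376% of counts in LV Sham-F and 0.0653 to 0.112% in RV Sham-F, and that of 9 ventricular cardiomyocyte genes, all detected, was 8.01 to 10.3% and 10.8 to 14.3%. Across the 41 LV libraries, deviations from the group means on the axis correlated with those of the fibroblast share at r = 0.80 and of the ventricular cardiomyocyte share at r = -0.50, and with those of Trim55 at r = -0.89, Fbxo32 at -0.77, Sqstm1 at 0.42 and Trim54 at 0.26. Across the 41 RV libraries the fibroblast share had r = 0.92, the ventricular cardiomyocyte share -0.57, Fbxo32 -0.73, Trim55 -0.47, Sqstm1 -0.35 and Trim54 -0.34, so that the last 2 had the opposite sign there. Trim63, Foxo1 and Foxo3 had -0.42, -0.19 and -0.32 in LV and -0.49, -0.54 and -0.32 in RV. The shares of skeletal muscle, atrial cardiomyocyte and red blood cell genes had only -0.0007, 0.19 and 0.21 in RV. These are descriptions over libraries that share their animals. In bulk samples, fewer cells of a type and less RNA per cell cannot be told apart.

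Calls among these genes were most frequent between the ventricles at the F stage and with age in LV, as were calls among all genes tested. The question of whether RV and LV cardiomyocytes differ was put within each condition, on normalized read counts (raw counts scaled to a common library size), with the quasi-likelihood test of edgeR. The 11954 genes with enough counts were tested together, and a gene was called where its two-sided p, after Benjamini-Hochberg adjustment, was under 0.05. In Sham-F, Fbxo32 and Trim55 were higher and Trim54 and Sqstm1 lower in the RV, 4 of the 7 genes tested, in a comparison in which 74.3% of all genes tested were called. The same 4 genes were called in the same directions in PAB-F, where 61.2% of all genes were called, and together with Trim63 in AOB-F, where 67.1% were called. Shares this high mean that a call at the F stage was the usual result for a gene. At stage H, calls were fewer: Fbxo32 and Trim55 in Sham-H (21% of all genes), Fbxo32 in AOB-H (7.98%) and none of the 7 in PAB-H (0.125%).

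Fbxo32 encodes the F-box protein atrogin-1, the substrate receptor of an SCF ubiquitin ligase. Its normalized read counts in Sham-F were 4079 to 4998 with a median of 4680 in the 9 RV libraries, and 1761 to 2900 with a median of 2270 in the 9 LV libraries. The groups did not overlap, and the RV was higher in 9 of 9 animals. The log2 difference was 1.003 (SE 0.125, edgeR adjusted p = 5.3e-11), a fold of 2.005. In AOB-F the 7 RV libraries held 3464 to 4663 counts and the 7 LV libraries 1571 to 2124, again without overlap, with a log2 difference of 1.09 (SE 0.142, edgeR adjusted p = 9.89e-10). In PAB-F the difference was 0.66 (SE 0.152, edgeR adjusted p = 1.31e-04), higher in the RV of 6 of 6 animals. In Sham-H it was 0.65 (edgeR adjusted p = 8.52e-04), with 3787 to 4977 counts in RV and 1741 to 4000 in LV, and in AOB-H 0.51 (edgeR adjusted p = 0.0208). Without the stage H LV libraries that scored above every RV library these were 0.47 (edgeR adjusted p = 0.0233) and 0.40 (edgeR adjusted p = 0.0734). In Sham-H and AOB-H those were the lowest LV libraries for Fbxo32, so that leaving them out could only narrow the difference. The AOB-H call was also lost without RV AOB-H replicate 1, without RV AOB-H replicate 4 or without LV AOB-H replicate 6, with adjusted p of 0.0537, 0.0529 and 0.185. PAB-H had 0.33 (edgeR adjusted p = 0.42), although the RV was higher in all 6 animals. Fbxo32 was thus higher in the RV library of every one of the 41 animals.

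The order of the Fbxo32 group means had all 6 RV groups above all 6 LV groups, from RV Sham-F (4586 ± 338, SD, n = 9) down to LV AOB-F (1925 ± 172, n = 7). Each step between neighbours in that order was smaller than the larger SD of the pair.

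Trim55 encodes MuRF2, which binds the sarcomere protein titin and microtubules. In Sham-F its normalized read counts were 3149 to 4654, median 4187, in RV and 1330 to 2080, median 1667, in LV. No LV library reached the lowest RV library. The log2 difference was 1.282 (SE 0.139, edgeR adjusted p = 6.3e-13), a fold of 2.43, the widest ventricle difference among the 7 genes. It was 0.97 in PAB-F (SE 0.169, edgeR adjusted p = 1.82e-06) and 1.06 in AOB-F (SE 0.156, edgeR adjusted p = 2.46e-08), where RV and LV did not overlap either. In Sham-H, 3790 to 4432 counts in RV stood against 1644 to 3652 in LV, a log2 difference of 0.46 (edgeR adjusted p = 0.0276). Without LV Sham-H replicate 4 or replicate 5 the adjusted p was 0.145 or 0.0784, and without both the difference was 0.30 (edgeR adjusted p = 0.29). They were the lowest LV Sham-H libraries for Trim55, at 1644 and 2410 counts, so that leaving them out could only narrow the difference. In AOB-H the groups did not overlap, and the difference of 0.44 missed the threshold (edgeR adjusted p = 0.0918).

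Trim54 encodes MuRF3, the family member tied to microtubule stability. It went the other way: in Sham-F the RV libraries held 2865 to 4454 counts, median 3283, and the LV libraries 4026 to 6425, median 4937. The RV was lower in 9 of 9 animals, and 8 of the 9 RV libraries lay under the lowest LV library. The log2 difference was -0.59 (SE 0.115, edgeR adjusted p = 5.87e-06), with -0.41 in PAB-F (edgeR adjusted p = 0.00975) and -0.39 in AOB-F (edgeR adjusted p = 0.00646), where a fit of the 2 groups alone gave -0.40 (edgeR adjusted p = 0.0593). At stage H it was -0.12 in Sham-H, -0.14 in PAB-H and 0.24 in AOB-H, none called.

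Sqstm1 had the highest read counts of the 8 genes. In Sham-F its counts were 5045 to 6563 in RV, median 5885, and 7251 to 12171 in LV, median 8832, with no overlap. The log2 difference was -0.68 (SE 0.110, edgeR adjusted p = 1.03e-07), and it was -0.53 in PAB-F (edgeR adjusted p = 4.73e-04) and -0.59 in AOB-F (edgeR adjusted p = 3.17e-05). RV was lower in each of the 22 animals of stage F. In Sham-H it was -0.26 (edgeR adjusted p = 0.124), lower in the RV of 7 of 7 animals, and with the animal as a block the adjusted p was 0.0281.

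Trim63 (MuRF1) was called between ventricles in AOB-F alone. There it held 2537 to 4140 counts, median 3661, in RV and 1563 to 3864, median 2076, in LV, a log2 difference of 0.62 (SE 0.185, edgeR adjusted p = 0.0027) with overlapping groups. In the other 5 conditions the difference was 0.02 to 0.39 and not called. With the animal as a block, the Sham-F difference was 0.32 (edgeR adjusted p = 0.0351). Foxo1 differed between ventricles by -0.16 to 0.06 and Foxo3 by -0.19 to 0.22 on the log2 scale, and neither was called in any of the 6 conditions. The 95% interval of the Sham-F difference was -0.18 to 0.29 for Foxo1 and -0.11 to 0.31 for Foxo3.

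**Figure D2:**
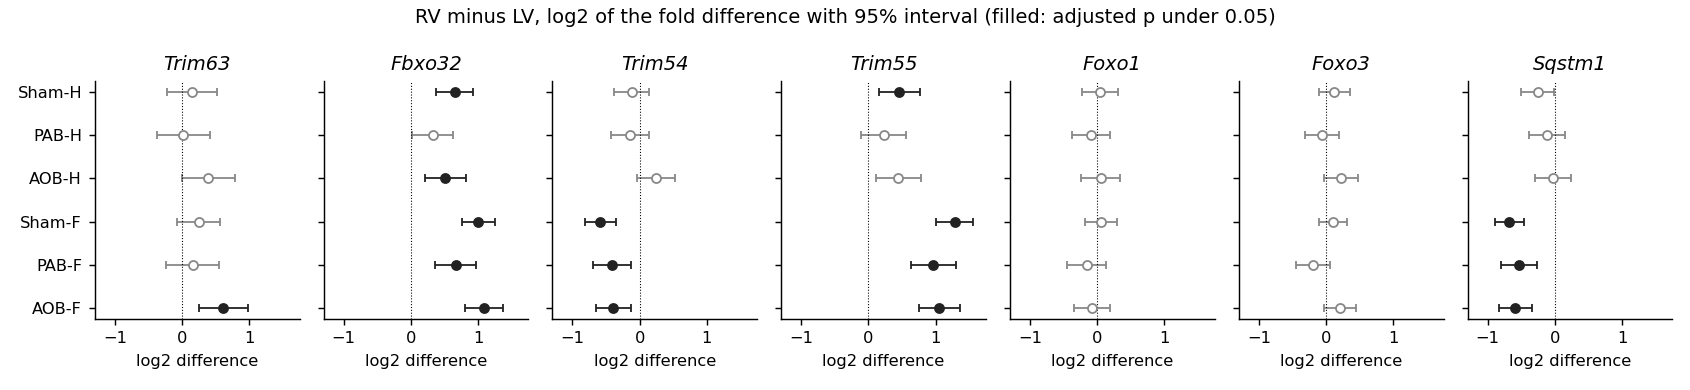
RV minus LV differences of the 7 tested genes (log2 scale, x axis) in each condition (y axis), with 95% intervals; filled points had an adjusted p under 0.05 and the dotted line marks 0. Fbxo32 and Trim55 lie to the right of 0, Trim54 and Sqstm1 to the left at the F stage, and Foxo1 and Foxo3 stay near 0.

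**Figure D3:**
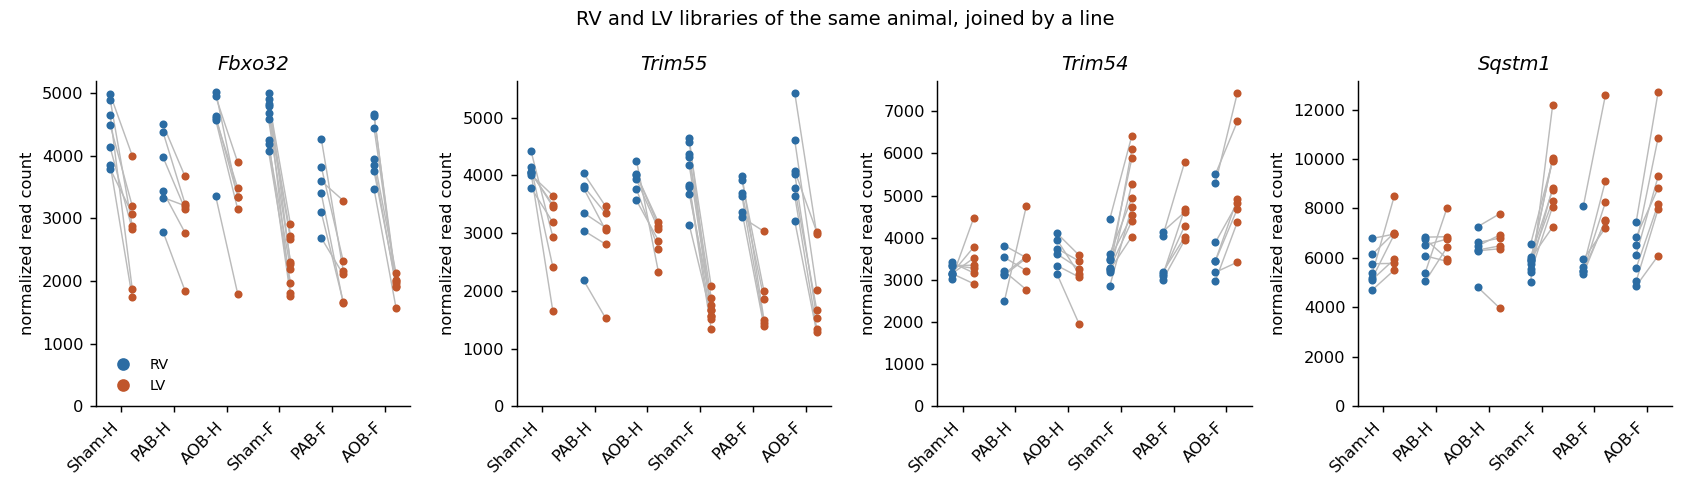
Normalized read counts (y axis, from 0) of Fbxo32, Trim55, Trim54 and Sqstm1 in the RV (blue) and LV (orange) libraries of each of the 41 animals, joined by a line, by condition (x axis). The lines of Fbxo32 fall from RV to LV in all animals, and those of Sqstm1 rise in all 22 animals of stage F.

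These ventricle differences depend on what the counts are set against. Scaled to the summed counts of the 9 ventricular cardiomyocyte genes, a choice made after the data were seen, the median of all genes tested moved to -0.61 in Sham-F, -0.21 in PAB-F and -0.78 in AOB-F on the log2 scale. On that scale Fbxo32 was still higher in the RV, by 0.47 in Sham-F (edgeR adjusted p = 3.62e-05), 0.43 in PAB-F (edgeR adjusted p = 0.00283) and 0.38 in AOB-F (edgeR adjusted p = 0.00297). Trim55 was higher by 0.74 in Sham-F and 0.79 in PAB-F, and in AOB-F by 0.31, which was not called (edgeR adjusted p = 0.121). Trim54 and Sqstm1 were lower by more than before, at -1.12 and -1.21 in Sham-F. Trim63 in AOB-F turned to -0.11 (edgeR adjusted p = 0.613). In Sham-H, where the median of all genes moved to -0.29, Trim55 had 0.23 and was no longer called (edgeR adjusted p = 0.344), and Sqstm1 was called at -0.53 (edgeR adjusted p = 0.027). Foxo1 was called lower in the RV in all 3 conditions of stage F, at -0.49 in Sham-F, -0.40 in PAB-F and -0.73 in AOB-F, as was Foxo3, at -0.44, -0.42 and -0.48. For both genes these values lay above the median of all genes in Sham-F and AOB-F and below it in PAB-F. The 9 reference genes themselves differed between the ventricles before this scaling. Of them, 5 were called higher and 2 lower in RV Sham-F, 4 and 2 in PAB-F, and 5 and 1 in AOB-F. The part that other cells had in any ventricle difference was not tested.

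Between the sham groups of different age, calls among these genes were found in LV. In LV cardiomyocytes, where 57.4% of all genes were called between Sham-F and Sham-H, Trim54 and Sqstm1 were higher and Trim55 and Foxo1 lower in the older animals, 4 of the 7 genes tested. In RV cardiomyocytes, with 0.0502% of all genes called, none of the 7 was called by edgeR, and 1 had an unadjusted p under 0.05. Trim55 fell from 1644 to 3652 counts in LV Sham-H to 1330 to 2080 in LV Sham-F, a log2 difference of -0.83 (SE 0.145, edgeR adjusted p = 3.93e-06). Trim54 rose from 2909 to 4463 to 4026 to 6425, by 0.56 (SE 0.124, edgeR adjusted p = 1.21e-04). Sqstm1 rose by 0.47 (SE 0.118, edgeR adjusted p = 5.42e-04). The groups overlapped for each of these.

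Foxo1, the FOXO factor with the higher level here, was lower in the older animals in LV. There it held 1458 to 1956 counts in Sham-H and 1063 to 1628 in Sham-F, a log2 difference of -0.32 (edgeR adjusted p = 0.0249), which was 0.0755 without LV Sham-H replicate 3, 0.0517 without LV Sham-H replicate 7 and 0.0516 without LV Sham-F replicate 1. In RV the difference was -0.31 (95% interval -0.56 to -0.06, edgeR adjusted p = 0.77), and the RV minus LV difference of the changes was 0.01 (95% interval -0.35 to 0.37, edgeR adjusted p = 0.972). With the replicate number as a block, Foxo1 was called in RV (-0.37, edgeR adjusted p = 0.0289) and not in LV (-0.32, edgeR adjusted p = 0.0668). That number joins different animals. Deviations of same-numbered Sham-F and Sham-H libraries correlated at -0.03 to 0.17 in RV and -0.24 to 0.35 in LV. Fbxo32 in LV had -0.29 (edgeR adjusted p = 0.0523). It had -0.50 (edgeR adjusted p = 1.49e-04) without the stage H LV libraries that scored above every RV library, LV Sham-H replicates 4 and 5 among them. Those were the lowest LV Sham-H libraries for Fbxo32, at 1741 and 1878 counts, so that leaving them out could only widen the fall. The choice of libraries came from these same data. Some markers of other cells were called higher in LV Sham-F too, in a comparison in which 57.4% of all genes were called. Of the fibroblast genes tested, 5 of 9 were called higher, with sums of 0.0602 to 0.168% of counts against 0.0349 to 0.118% in LV Sham-H, as were 5 of 7 mural, 4 of 8 macrophage and 2 of 7 endothelial genes, while 1 endothelial gene and 5 of 9 ventricular cardiomyocyte genes were lower and 2 of these 9 were higher. Their part in these differences was not tested.

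The change of the ventricle difference with age was tested directly, as RV minus LV in Sham-F minus the same in Sham-H, for which 41.6% of all genes were called. Trim55 was called at 0.82 (SE 0.207, edgeR adjusted p = 0.00157), Trim54 at -0.47 (SE 0.174, edgeR adjusted p = 0.0248) and Sqstm1 at -0.42 (SE 0.166, edgeR adjusted p = 0.0352). The Sqstm1 call was lost without any single one of 7 libraries, with adjusted p up to 0.0735. Fbxo32 had 0.35 (edgeR adjusted p = 0.121), and with the animal as a block 0.33 (edgeR adjusted p = 0.0465).

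Banding changed few of these genes. Against the sham group of the same ventricle and stage, Trim63 fell in LV AOB-F, where 12.9% of all genes were called, and Fbxo32 fell in RV PAB-F, where 11.1% were called. None of the 7 was called in the other 6 comparisons. The share of all genes called was 4.50% in RV PAB-H, 0% in LV PAB-H, 0% in LV PAB-F, 0% in RV AOB-H, 0.0167% in LV AOB-H and 0.0669% in RV AOB-F. In these 6 comparisons no member had an unadjusted p under 0.05 by edgeR, and none was called by DESeq2. No ligase rose in any banded group by either test over both sexes.

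Trim63 in LV AOB-F held 2076, 1824, 2768 and 1563 counts in the 4 males and 3864, 2027 and 2341 in the 3 females. In LV Sham-F it held 2693, 2485, 1935 and 2591 counts in the 4 males and 4670, 3989, 5360, 5696 and 4540 in the 5 females. The sham group was thus split by sex without overlap, and the AOB-F males overlapped the sham males. The log2 difference between the groups was -0.68 (SE 0.177, edgeR adjusted p = 0.00654), and leaving out any single library gave -0.85 to -0.59 with the call unchanged. Within females it was -0.82 (edgeR adjusted p = 0.0015) and within males -0.24 (edgeR adjusted p = 0.876), and in females Trim55 was higher by 0.63 (edgeR adjusted p = 0.00409) and Foxo1 lower by 0.47 (edgeR adjusted p = 0.0204), a split chosen after the data were seen, and the difference between the sexes was not tested. A fit of these 2 groups alone gave -0.71 (edgeR adjusted p = 0.13).

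Fbxo32 in RV PAB-F held 2686, 3094, 3398, 4269, 3593 and 3823 counts, against 4079 to 4998, median 4680, in RV Sham-F. Of the 6 banded libraries, 5 lay under all 9 sham libraries. PAB-F had 4 males and 2 females, and Sham-F 4 males and 5 females. In RV Sham-F the males held 4079 to 4589 counts and the females 4680 to 4998, without overlap. The log2 difference was -0.40 (SE 0.140, edgeR adjusted p = 0.0496), and leaving out any one of 10 of the 15 libraries ended the call, with adjusted p up to 0.22. The largest of these was without RV PAB-F replicate 1. With sex as a covariate the log2 difference was -0.38 and was not called (edgeR adjusted p = 0.0644). Foxo1 and Foxo3 were lower there by 0.33 and 0.29 on the log2 scale without passing the test (edgeR adjusted p = 0.0865 and 0.0925). Fibroblast genes summed to 0.0387 to 0.232% of counts in RV PAB-F and 0.0213 to 0.063% in RV Sham-F, and ventricular cardiomyocyte genes to 7.36 to 11.98% and 10.8 to 14.3%. Their part in the Fbxo32 difference was not tested.

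**Figure D4:**
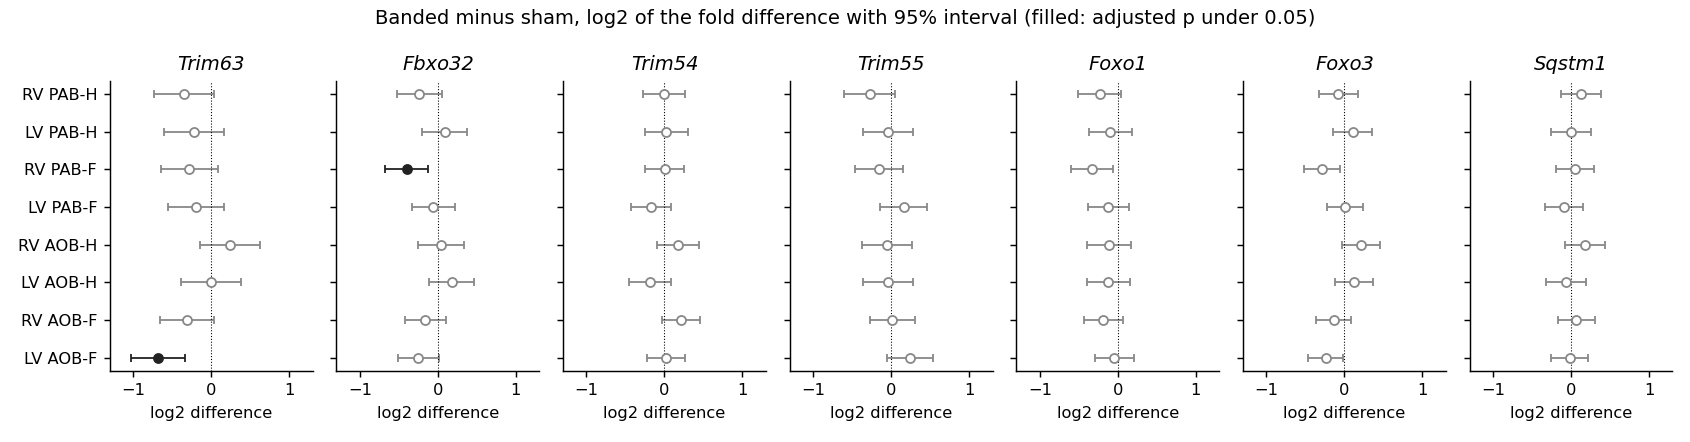
Banded minus sham differences of the 7 tested genes (log2 scale, x axis) in the 8 comparisons (y axis), with 95% intervals; filled points had an adjusted p under 0.05. Trim63 in LV AOB-F (-0.68) and Fbxo32 in RV PAB-F (-0.40) are the filled points.

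Whether the response to banding differed between ventricles or stages was tested as a difference of differences. None of the 7 genes was called in the RV minus LV response to PAB-H (0% of all genes), PAB-F (0.351%), AOB-H (0%) or AOB-F (0%), nor in the F minus H response of the RV to PAB (0%) or of the LV to AOB (0%). In the last of these, 3 members had an unadjusted p under 0.05 by edgeR: Trim63 had -0.68 (95% interval -1.19 to -0.16, adjusted p = 0.31), Fbxo32 -0.43 (-0.82 to -0.03, adjusted p = 0.467) and Foxo3 -0.36 (-0.70 to -0.03, adjusted p = 0.456). The responses compared share sham libraries.

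The sexes differed in Trim63. In a fit of group and sex over all libraries, in which 17.2% of all genes were called, Trim63 was lower in males by 0.36 on the log2 scale (SE 0.068, edgeR adjusted p = 8.32e-05) and Trim55 by 0.21 (SE 0.061, edgeR adjusted p = 0.0106). The mean of the females was higher in 11 of 12 groups for Trim63 and in 9 of 12 for Trim55. The females lay above all males in 5 groups for each gene, and among them for Trim63 was LV Sham-F, with 3989 to 5696 counts in 5 females and 1935 to 2693 in 4 males. The exception for Trim63 was RV AOB-F, where the 3 females held 2537 to 3520 counts and the 4 males 3661 to 4140.

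Both libraries of an animal entered this fit, so its p-values are too small. With 1 library per animal, an alternative added after the data were seen, Trim63 was lower in males by 0.57 in LV (edgeR adjusted p = 4.54e-04) and by 0.16 in RV (edgeR adjusted p = 0.225), and the difference between ventricles was not tested. Trim55 had -0.29 in LV (edgeR adjusted p = 0.0903) and -0.15 in RV (edgeR adjusted p = 0.0885). Foxo1 had -0.20 in RV (edgeR adjusted p = 0.0399). The other 5 genes differed between the sexes by -0.12 to 0.07 and were not called in the fit over all libraries. In that fit 5 of 9 fibroblast genes (list median 0.41) and 2 of 7 endothelial genes (0.20) were called higher in males, 1 of 9 ventricular cardiomyocyte genes was called lower, and their part in the differences between the sexes was not tested.

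**Figure D5:**
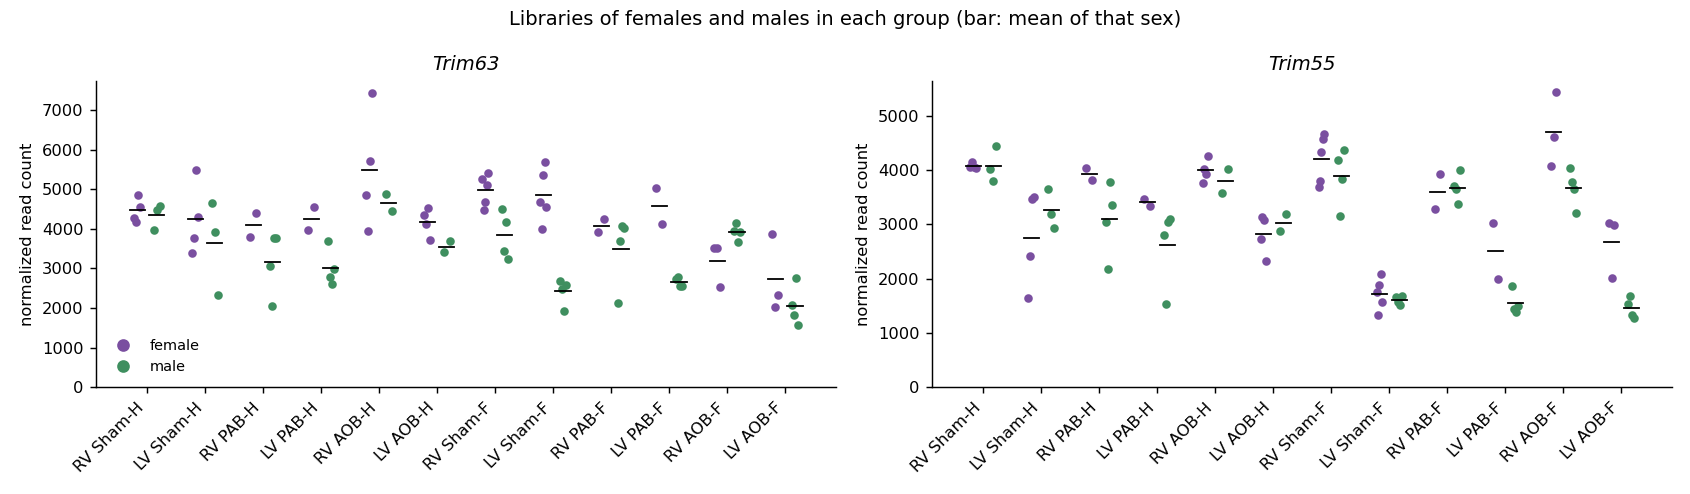
Normalized read counts (y axes, from 0) of Trim63 and Trim55 in the libraries of females (violet) and males (green), by group (x axis), with bars at the mean of each sex. The females of LV Sham-F lie between 3989 and 5696 counts for Trim63, above all males of that group, and RV AOB-F shows the opposite order.

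Other genes of the same pathways were counted from lists, beside the share called among all genes. Between the ventricles of Sham-F, where 74.3% of all genes were called, 10 of 13 other muscle-atrophy ubiquitin ligases passed, 6 higher and 4 lower in the RV. Fbxo30, which drives muscle loss after denervation, was higher by 1.81, and Nedd4 by 1.305, while Stub1 (the chaperone-bound ligase CHIP) was lower by 0.76 and Fbxl22, a sarcomere ligase, by 0.75. In Sham-H, Fbxo30 (0.89) was the single one called.

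Of 15 other FOXO target genes, 8 were higher and 3 lower in RV Sham-F, beside 74.3% of all genes called. The list median was 0.32 against -0.07 for all genes. The antioxidant enzymes Sod2 and Cat were higher by 1.07 and 0.97, Pdk4, which blocks pyruvate oxidation, by 1.57, and the growth arrest gene Gadd45a by 0.89. The translation repressor Eif4ebp1 was lower by 0.78 and the mitophagy kinase Pink1 by 0.68. Sod2 (0.37) and Cat (0.38) were also called in Sham-H, beside Plk2 (-0.65).

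Calls in the next lists stand beside the same 74.3% of all genes called, so that a call was the usual result for a gene. Of the autophagy and lysosome list, 12 of 24 genes were higher and 5 lower in RV Sham-F. The list median was 0.19 against -0.07 for all genes. The cargo receptors Tax1bp1 (2.01) and Optn (1.76), which act beside p62, were higher, and Sqstm1 itself was lower by 0.68. Map1lc3a, an LC3 gene, was lower by 1.08 and the lysosomal master regulator Tfeb by 0.98. In the p62, KEAP1 and NRF2 list 6 of 11 were higher and 2 lower: the ligase scaffold Cul3 (2.04) and the p62 kinase Tbk1 (1.23) were higher, and Keap1, which holds NRF2 for degradation, was lower by 0.58.

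Upstream regulators were mixed, again beside 74.3% of all genes called. Of 16 genes of insulin, AKT and FOXO regulation, 7 were higher and 4 lower in RV Sham-F, with Pik3r1 (1.41) and Pik3ca (1.33), subunits of PI3-kinase, at the top and Igf1r (-0.70) and Akt1 (-0.65) at the bottom. Of 12 glucocorticoid-responsive genes, the receptor gene Nr3c1 was higher by 1.16 and 5 were lower: Cebpd (-2.004), Dusp1 (-1.497), Per1 (-1.01), Sgk1 (-0.67) and Tsc22d3 (-0.46). Dusp1 and Cebpd are also induced by handling stress of cells, and the summed share of 7 immediate early genes was 0.255 to 0.558% in LV Sham-F and 0.195 to 0.27% in RV Sham-F. The part of that stress in the difference was not tested. Of 17 genes of the myostatin and activin pathway, 4 were higher and 7 lower, with Smad2 at 0.88 and the activin subunit gene Inhbb at -1.85.

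The F stage of the banded groups gave like counts between ventricles. In PAB-F, with 61.2% of all genes called, 6 higher and 2 lower FOXO targets, 11 and 5 autophagy genes and 6 and 1 genes of the p62 list were found, and in AOB-F, with 67.1%, 6 and 3, 11 and 6, and 5 and 3. The comparison of LV Sham-F with LV Sham-H shares its LV Sham-F libraries with the ventricle comparison, and 57.4% of all genes were called in it. It gave 2 higher and 5 lower FOXO targets, 5 and 11 autophagy genes, and 2 and 5 genes of the p62 list.

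Banding moved a few genes of each list. In LV AOB-F, with 12.9% of all genes called, 4 of 11 genes of the p62, KEAP1 and NRF2 list rose and none fell, led by the NRF2 target genes Nqo1 (0.51) and Txnrd1 (0.49). Of 24 autophagy genes 5 rose, among them the lysosomal protease gene Ctsl (0.64) and Becn1 (0.51), and 2 fell, Ulk1 (-0.52) and Tfeb (-0.32). The metallothionein Mt2A rose by 2.08 and the glucocorticoid target Klf15 fell by 0.60. Among the other ligases Cblb rose by 0.54 and Fbxo31 fell by 0.42. Macrophage markers, of which 5 of 8 were called higher, summed to 0.0109 to 0.0674% of counts in LV AOB-F and 0.0104 to 0.0249% in LV Sham-F, and their part was not tested.

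In RV PAB-F, with 11.1% called, 3 of 17 genes of the myostatin and activin pathway rose and none fell: the activin antagonist Fstl3 by 1.43 and the activin subunit gene Inhba by 1.25 were the largest. Fstl3 was the single pathway gene called in the RV minus LV response to PAB-F, at 1.37. Igf1 rose by 1.02, and the FOXO targets Sesn3 and Plk2 rose by 0.94 and 0.88 while Cited2 and Bcl2l11 fell by 0.65 and 0.44. In the same comparison 6 of 9 fibroblast genes (list median 1.33) and 3 of 8 macrophage genes (0.92) were called higher, and their part was not tested. In LV AOB-F, Inhba rose by 1.15 and Fstl3 by 0.83. Between the sexes, 5 of 16 genes of insulin, AKT and FOXO regulation were lower in males, led by Irs2 (-0.43) and Irs1 (-0.29), and 2 were higher, among them Igf1 (0.84), with 17.2% of all genes called.

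Some pairs of members varied together from library to library within groups, and others did not. The values are descriptions of log2 CPM deviations from the group means, over 41 libraries per ventricle that share the leading axis above. In RV, Fbxo32 and Sqstm1 had r = 0.72 (Spearman 0.68), the highest of the pairs, with a positive r in 6 of 6 groups. Fbxo32 ranked 18 among the 11953 other genes for Sqstm1, and Sqstm1 ranked 149 for Fbxo32. Foxo1 had r = 0.64 with Trim63 (Spearman 0.59) and 0.58 with Fbxo32 (Spearman 0.57) in RV. It was rank 52 for Trim63 and rank 803 for Fbxo32. Without the 2 libraries farthest on the x gene the r of these pairs was 0.68, 0.52 and 0.57, in the order given.

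In LV the pairs were others. Trim54 and Sqstm1 had r = 0.74 (Spearman 0.70), against 0.37 in RV, and Fbxo32 and Trim55 had 0.64 (Spearman 0.70), against 0.15 in RV. Fbxo32 and Sqstm1 had 0.02. Trim63 and Foxo1 had 0.02. Fbxo32 and Foxo3 had 0.56 in LV and 0.48 in RV. Foxo3 had Fbxo32 at rank 22 in LV, while Fbxo32 had Foxo3 at rank 1520 there. Trim63 and Fbxo32, the ligases most often measured together, had 0.45 in each ventricle, though in RV this was 0.22 without the 2 libraries farthest on Trim63. The lowest values in LV were -0.43 for Trim63 with Sqstm1, -0.43 for Trim55 with Sqstm1 and -0.37 for Trim54 with Foxo1, and in RV -0.14 for Trim55 with Foxo3.

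Among the genes whose deviations were nearest to each member over all 82 libraries were Vegfa (r = 0.89), Ngdn (0.82) and Mir208b (0.82) for Trim63. They were Mylk3 (0.88), Akap6 (0.85) and Socs6 (0.84) for Fbxo32, Drap1 (0.85), Nol3 (0.81) and Ipo4 (0.79) for Trim54, and Vcl (0.85), Prepl (0.83) and Gja1 (0.81) for Trim55. Foxo1 had Myh6 (0.73) and Pm20d2 (0.72), Foxo3 had Rhobtb1 (0.69), Klf9 (0.64) and Rilpl1 (0.64), and Sqstm1 had Adrm1 (0.82) and Akt1s1 (0.81). Mir208b lies within the gene of a myosin heavy chain, and its reads in these libraries need not come from the mature microRNA.

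The deviations of the RV and LV libraries of the same animal were positively correlated for all 7 genes, for Trim63 at about the median of all genes. Across 41 animals Pearson's r was 0.69 for Foxo3 (Spearman 0.60), 0.62 for Foxo1 (0.51), 0.58 for Fbxo32 (0.50), 0.58 for Sqstm1 (0.46), 0.51 for Trim54 (0.40), 0.50 for Trim55 (0.39) and 0.28 for Trim63 (0.29), beside a median of 0.26 over all genes tested. Without the 2 animals farthest in RV, r was 0.25 to 0.60.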

How the data were processed

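The authors trimmed the reads with Trim Galore, aligned them with STAR to the rat genome Rnor6.0 within the nf-core pipeline and counted reads per gene with featureCounts, and they deposited raw counts per gene for 82 libraries. The deposited normalized signal values are counts divided by DESeq2 1.28.1 size factors, and the authors' FPKM values set these per gene length. The members and lists were chosen with earlier results of these data known. Raw counts were tested with edgeR 4.0.16 (quasi-likelihood, TMM, R 4.3.3) in 1 fit of 12 group means over the 11954 of 17337 genes kept by filterByExpr, with Benjamini-Hochberg adjustment and a threshold of 0.05. Normalized read counts are raw counts over the TMM library size times its mean (13282344). Correlations used log2 CPM with a prior count of 2. FPKM served to compare genes. DESeq2 1.42.0, its size factors, no filter, sex, replicate blocks, fits of 2 groups and left-out libraries were alternatives. RV and LV libraries of an animal are paired by the labels: their deviations had a median r of 0.186 to 0.297 by condition, against -0.0686 to -0.0142 for other animals. Named genes were the 8 members, the 3 genes nearest to each, and, per list, called genes of at least 1 mean CPM, the 2 with the largest rise and the 2 with the largest fall, or any called gene of the ligase, FOXO target and glucocorticoid lists; a few genes that this rule names are not reported here. Scripts were tested on simulated data. No gene coordinates of the authors' build were used.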

Additional observations from a re-analysis of the deposited data

Results flagged for a closer look

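A library stood far from the rest of its group, by Dixon's test, in 13 of the 84 combinations of gene and group, where chance gives about 1 in 20. AOB-H replicate 6, a single animal, was the lowest library for Fbxo32 in both ventricles (1792.4 counts in LV, 3348.7 in RV) and for Trim54 (1951.5) and Sqstm1 (3966.2) in LV. The shallowest library of all, with 6675287 counts on genes, was in LV AOB-H. LV AOB-H replicate 6 had the lowest raw counts of the 82 libraries for Fbxo32 (1104), Trim54 (1202) and Sqstm1 (2443). The part of depth was not tested. PAB-F replicate 4 was the highest for Sqstm1 in both ventricles, with 12578.8 counts in LV and 8111.5 in RV. Trim63 had its lowest library apart in RV PAB-F replicate 1 (2128.1) and RV AOB-F replicate 7 (2537.2), and Fbxo32 in LV AOB-F replicate 7 (1571.2). Trim55 was apart in LV PAB-H replicate 2 (1525.1, the lowest) and LV PAB-F replicate 5 (3030.2, the highest), Trim54 in RV Sham-F replicate 4 (4453.9, the highest) and Foxo3 in RV Sham-F replicate 5 (1462.8, the highest).

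The ventricle difference changed with age for 3 genes by the test of that change: Trim55 by 0.82, Trim54 by -0.47 and Sqstm1 by -0.42 on the log2 scale (RV minus LV in Sham-F minus the same in Sham-H). In that test 41.6% of all genes were called, so such a call was common for any gene. Without the filter on low counts the calls of Trim54 and Sqstm1 were lost (edgeR adjusted p = 0.0659 and 0.0961).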

How the results depend on the processing

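The number of members called kept within 1.5 times of its value under DESeq2 and under its size factors in all 24 comparisons. Without the filter on low counts, 1 member was called in the change of the ventricle difference with age, in place of 3. In RV PAB-F against sham, with 1 call, the count was 0 with sex as a covariate, 2 in a fit of the 2 groups alone, and 0 within females and 0 within males. In LV AOB-F, with 1 call, it was 0 in the 2-group fit, 3 within females and 0 within males. Between the ventricles it was 0 in AOB-H scaled to ventricular cardiomyocyte genes. Without the stage H LV libraries that scored above every RV library, a choice from these same data, it was 0 in AOB-H and 1 in Sham-H. In Sham-H on the cardiomyocyte scale Sqstm1 was called in place of Trim55. Between the sexes the count was 1 with RV alone and 1 with LV alone. Trim63 between the ventricles of AOB-F turned to -0.11 on the cardiomyocyte scale. The cause was not tested for any of these.

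Leaving out single libraries gave 0 to 1 calls in RV PAB-F and 1 to 1 in LV AOB-F, and between the ventricles 1 to 2 in Sham-H, 0 to 1 in AOB-H, 4 to 4 in Sham-F, 4 to 4 in PAB-F and 5 to 5 in AOB-F. It gave 3 to 5 in LV with age, 2 to 4 in the change of the ventricle difference and 2 to 3 between the sexes.

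With the animal as a replicate block, 2 members were called between the ventricles of AOB-H, Trim55 being added (0.45, edgeR adjusted p = 0.0142), and Foxo3 was called in AOB-F (0.21, edgeR adjusted p = 0.0133). Animals of different conditions share only a number: deviations of same-numbered libraries correlated at -0.446 to 0.452. With that replicate block the count was 2 in RV PAB-F, 0 in LV AOB-F and 1 in RV Sham-F against RV Sham-H.

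Mstn, with 100 reads in all, did not pass the filter on low counts and was given no test.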
